A study of Homo sapiens with 24 samples.

Results

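The genes described here are those of the lysosomal proton pump (V-ATPase), of lysosomal hydrolases with their luminal cofactors, and of lysosomal membrane proteins, with 3 of their transcriptional regulators. Members were all platform genes whose symbol begins with ATP6V0, ATP6V1 or ATP6AP (23 genes) and 34 further listed genes without cathepsins, 57 of 18774 gene symbols on the array. They fall into the V0 sector (8 genes), the V1 sector (12), pump accessory proteins (3), hydrolases (20), membrane proteins (8), luminal cofactors (3) and regulators (3). Expression was measured on 24 Illumina human-6 v2 BeadChips in IMR90, a fibroblast line from human fetal lung, expressing a fusion of the estrogen receptor with the G12V mutant of RAS (ER:RAS-G12V). The cells were harvested without treatment (0 h) and after 2, 8 and 24 h and 2, 4, 6 and 8 d in medium with 100 nM 4-hydroxytamoxifen (4-OHT), the ligand that activates the fusion, in 3 biological replicates (batches A, B and D) per time point. Every culture carried ER:RAS-G12V, so time in culture, 4-OHT itself and RAS activity cannot be told apart in these comparisons.

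Lysosomes degrade macromolecules with hydrolases that work at acid pH. The V-ATPase makes the lumen acid: its cytosolic V1 sector hydrolyses ATP and drives rotation of the membrane-bound V0 sector, which moves protons across the membrane. Expanded lysosomes are a known feature of senescent fibroblasts, and the beta-galactosidase stain commonly used for senescence reads the lysosomal enzyme encoded by GLB1. TFEB, TFE3 and MITF are related transcription factors that bind E-box-like sites upstream of many lysosomal genes.

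Of the 57 members, 53 were above background on at least 3 arrays and were tested. TFEB, ATP6V1C2 and ATP6V1G3 were above background on 0 of 24 arrays and ATP6AP1L on 2, so no change is given for them. ATP6V0D2 (10 arrays, 0 of them at 0 h) and FUCA1 (8 arrays, all at 4 d or later) passed this filter only through later arrays. Both are among the 53, their rises are given as bounds without a p, and counts without them are given over the 51 members that were above background on at least 1 array at 0 h. The cells carried fibroblast markers: 11 of 11 were above background on every array, while 8 of the 11 were lower at 8 d than at 0 h (DCN, log2 fold change -3.24; VIM, 0.07), and the part of that fall in the results was not tested. Of 11 macrophage and immune markers on the array, 9 were never above background, and CSF1R alone was above background on 3 or more arrays. Epithelial and endothelial lists had 4 of 8 and 6 of 7 markers above background on at least 3 arrays, and some moved over the same days as the members. At 4 d, 3 of the 4 epithelial markers tested were lower than at 0 h, with a summed intensity of 838 to 1146 per array at 4 d and 1262 to 1482 at 0 h. KRT18 alone of these markers was above background on any array at 4 d, so no size is given for the fall of KRT19. KRT18 was also the brightest of the epithelial markers at 0 h, with a mean log2 intensity of 10.08. Of the 6 endothelial markers tested, 3 were higher at 4 d than at 2 d (VWF, TEK and PECAM1). The sums were 758 to 1035 at 4 d, 418 to 460 at 2 d and 797 to 998 at 0 h. TEK, above background on all 24 arrays, rose by 1.34 and was the brightest of these markers at each time. Only 2 of 7 endothelial markers were above background on any array at 2 d. Not all 3 rises start from a measured level, so no size is given for VWF and PECAM1. The part of these markers in the results was not tested. In RNA from whole cultures, fewer cells of a type and less RNA per cell cannot be told apart.

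The promoters that hold a match to the TFEB-family site are shown because members changed together and because the regulators belong to this gene set. RefSeq promoter windows (250 bases before to 50 bases after each annotated start, GRCh38.p14) were matched for 42 of the 57 members. The letters TCACGTG, searched on both strands (CACGTGA on the other), were found in 10 of the 42 windows (23.8%), against 1226 of 27305 genes with a window (4.49%). Its inner run CACGTG, which any match contains, was found in 11 of 42 (26.2%), against 8.77% of all genes. Such sites are already known upstream of many lysosomal genes, so these shares describe the gene list and test nothing in the arrays. The genes with a window also include genes that were not tested here. The stretches below lie before the annotated start and are written 5′ to 3′ on the gene's strand, with the match, or overlapping matches on both strands, in capitals. The stretch of MCOLN1 holds the same letters again near its end, left in lower case. CLN3 is shown as a member with a match whose level at 8 d did not pass the test.
NEU1: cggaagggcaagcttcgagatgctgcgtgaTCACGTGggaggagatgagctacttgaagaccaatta
ATP6V0D1: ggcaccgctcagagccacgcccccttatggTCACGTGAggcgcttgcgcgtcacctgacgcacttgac
ATP6V1G1: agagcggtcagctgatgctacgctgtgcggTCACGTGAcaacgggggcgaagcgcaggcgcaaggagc
MCOLN1: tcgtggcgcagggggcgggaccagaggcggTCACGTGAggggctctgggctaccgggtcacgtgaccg
GAA: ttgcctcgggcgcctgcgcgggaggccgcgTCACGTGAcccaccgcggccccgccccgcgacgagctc
CLN3: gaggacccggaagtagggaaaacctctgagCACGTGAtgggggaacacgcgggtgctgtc
These stretches are at chr6:31862912-31862978 (minus strand) for NEU1, chr16:67481180-67481247 (minus) for ATP6V0D1, chr9:114587680-114587747 (plus) for ATP6V1G1, chr19:7522552-7522619 (plus) for MCOLN1, chr17:80101474-80101541 (plus) for GAA and chr16:28492075-28492134 (minus) for CLN3. The other members with a match were ARSB, ATP6V0B, ATP6V0E2 and LAMP1. Among members with a match, 8 of 10 were higher at 8 d than at 0 h, with a median log2 fold change of 0.66. Among the 28 members with a window, no match and a level above background on at least 1 array at 0 h, 19 were higher, with a median of 0.67. A match describes letters in a window and does not show binding.

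Across the time course, the members as a set stayed near their 0 h level until 24 h, were higher in part at 2 d, and were higher in most cases from 4 d on. All changes are log2 fold changes of normalized intensity with their standard error (SE), from limma on 10999 genes, and a member was called at a Benjamini-Hochberg adjusted p under 0.05 over all genes tested. At 2 h, 0 of 53 members passed the test, against 0.627% of all genes (2 members had an unadjusted p under 0.05). At 8 h, 0 passed, against 4.56% of all genes (6 had an unadjusted p under 0.05). The number of members that were higher than at 0 h was 5 at 24 h (6.84% of all genes were higher), 13 at 2 d (11%), 36 at 4 d (21.8%), 40 at 6 d (23.7%) and 41 at 8 d (24%). The number that were lower was 7 at 24 h (11.1% of all genes), 3 at 2 d (12.5%), 3 at 4 d (22.2%), 1 at 6 d (21.7%) and 2 at 8 d (23.4%). Both directions together, 18% of all genes passed at 24 h, 23.5% at 2 d, 43.9% at 4 d, 45.3% at 6 d and 47.4% at 8 d. Over the 51 members above background at 0 h, 35 were higher at 4 d, 38 at 6 d and 39 at 8 d, against 21.3%, 23.1% and 23.3% of the 10341 genes that met this condition. These comparisons share the 0 h arrays. The median log2 fold change of the members was -0.10 at 24 h, 0.05 at 2 d, 0.49 at 4 d, 0.69 at 6 d and 0.69 at 8 d, while the median of all genes tested lay between -0.02 and 0.03. In a moderated F test over the 8 time points, 48 of 53 members passed, against 69.4% of all genes. The 48 include ATP6V0D2 and FUCA1, which passed the filter only through later arrays, so they add no support to this count.

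**Figure D1:**
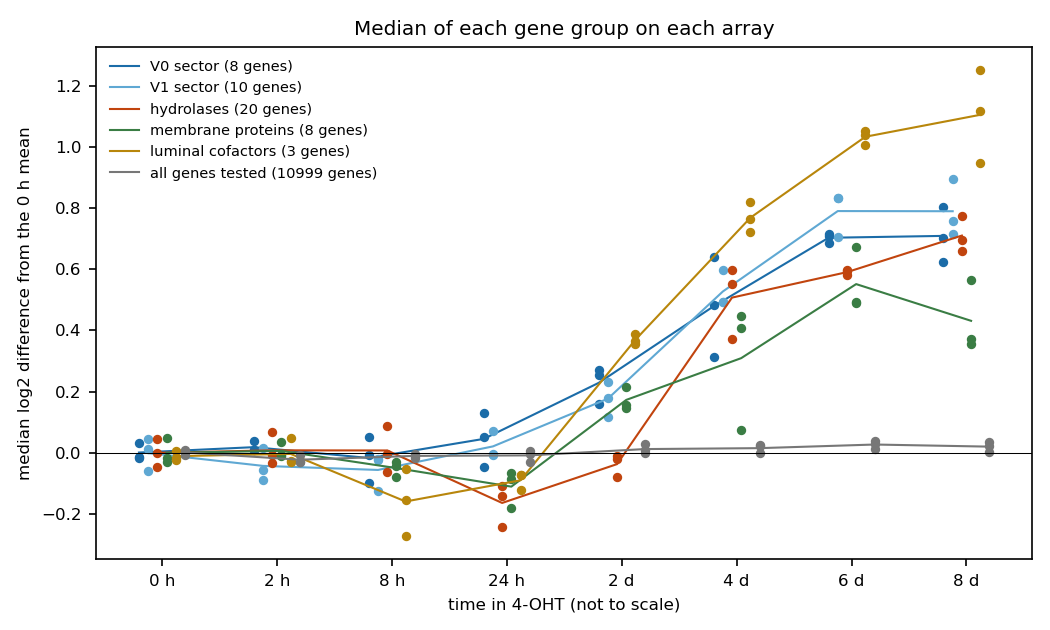
Median log2 difference from the 0 h mean on each array for 5 gene groups and for all genes tested; pump accessory genes and regulators are not drawn (points; vertical axis, log2 units) at 8 times in 4-OHT (horizontal axis, not to scale), with lines through the means of 3 arrays. At 2 d the V0 medians lie between 0.16 and 0.27 and the hydrolase medians between -0.08 and -0.01, and from 4 d on each of the 5 groups lies above the medians of all genes. The V0 and hydrolase groups include ATP6V0D2 and FUCA1, which were not well above background at 0 h.

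The gene groups had different values at 2 d. The V0 sector's median difference from 0 h was 0.16 to 0.27 over the 3 arrays at 2 d, the V1 sector's 0.12 to 0.23, the membrane proteins' 0.15 to 0.22 and the luminal cofactors' 0.36 to 0.39. The hydrolases' median was -0.08 to -0.01 at 2 d, below each of those ranges, and 0.37 to 0.60 at 4 d. The V0 and hydrolase ranges given here include ATP6V0D2 and FUCA1, not well above background at 0 h. Over genes measured at 0 h, the median log2 fold change at 2 d was 0.01 for 19 hydrolases (-0.02 with FUCA1). It was 0.25 for 7 V0 genes (0.22 with ATP6V0D2). The 2 pump accessory genes lay nearer to the hydrolases than to the V0 and V1 sectors at 2 d, with a median of -0.03 to 0.04. At 8 d the ranges were 0.62 to 0.81 for V0, 0.72 to 0.90 for V1, 0.66 to 0.78 for hydrolases, 0.36 to 0.57 for membrane proteins and 0.95 to 1.25 for luminal cofactors. The membrane proteins' range at 8 d lay below the other ranges just given but overlapped that of the 2 pump accessory genes (0.56 to 0.71). The difference between groups was not tested at either time. Of the 43 members that were higher than at 0 h at any time, 5 first passed the test at 24 h (11.6%), 8 at 2 d (18.6%), 26 at 4 d (60.5%) and 4 at 6 d (9.3%). The 43 include ATP6V0D2 (counted at 4 d) and FUCA1 (counted at 6 d), which passed the filter only through later arrays. Of the 4123 genes in the whole table that were ever higher, 14.6% first passed at 24 h, 17.4% at 2 d, 39.7% at 4 d and 14.5% at 6 d, so that 4 d was also the most frequent first time over all genes. Among hydrolases the first such time was 4 d for 12 genes, and NEU1 (24 h) and LIPA (2 d) came before.

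**Figure D2:**
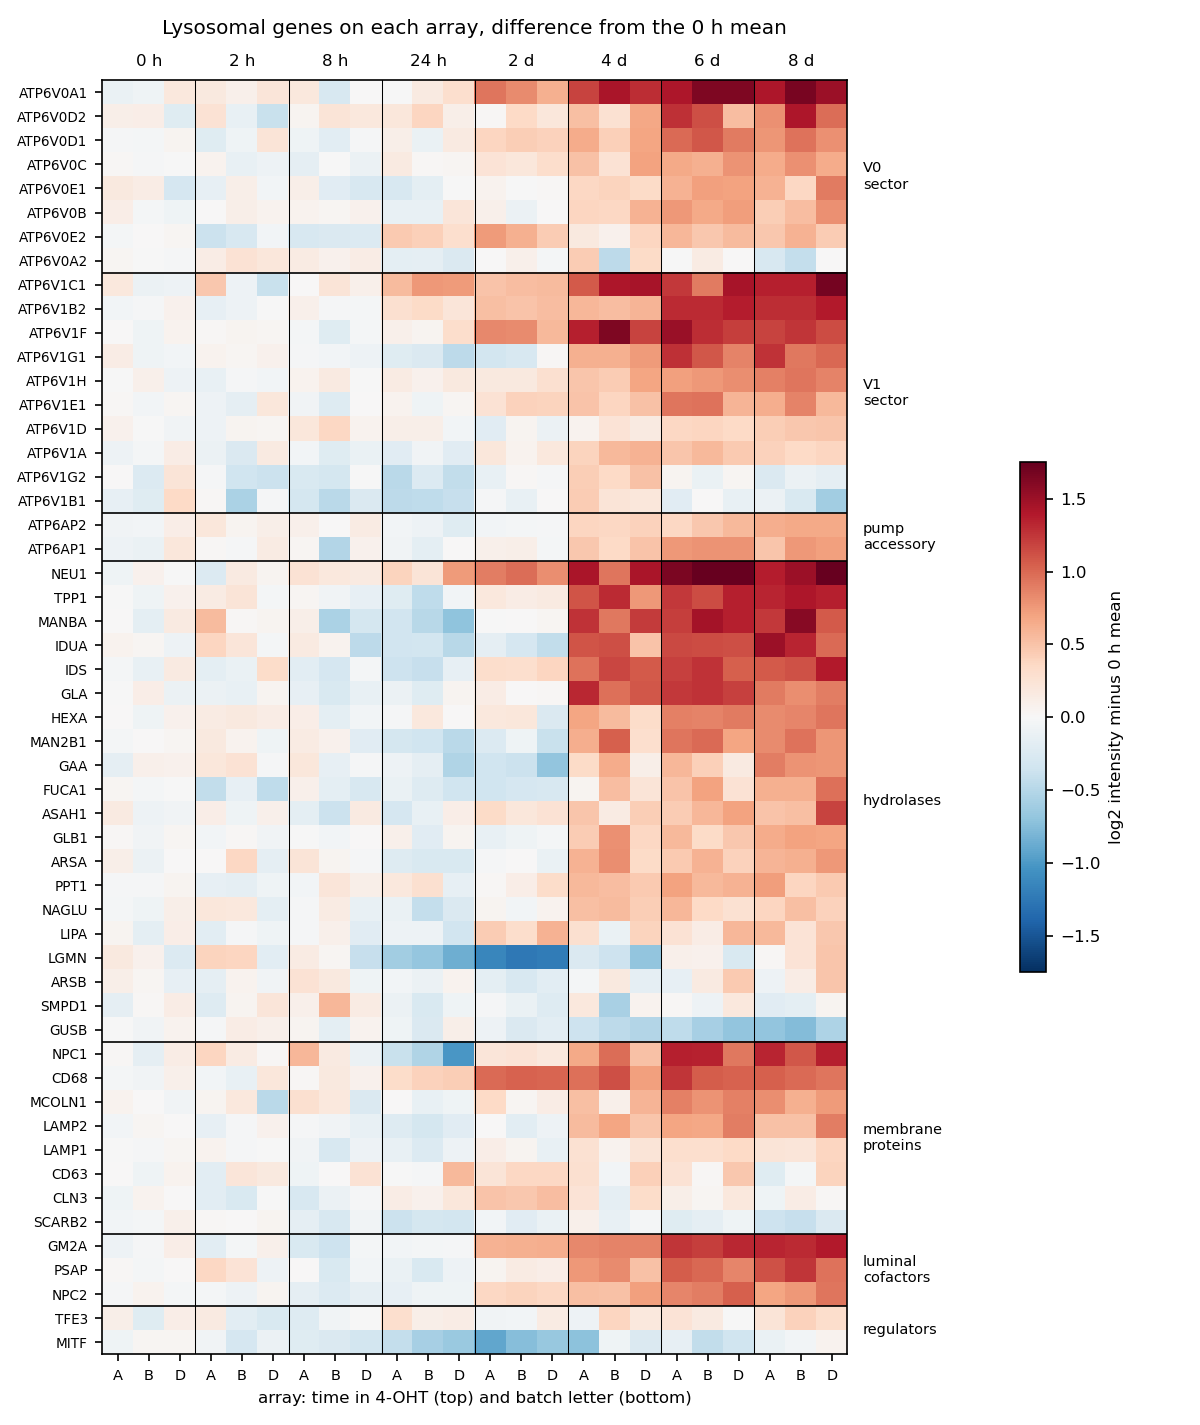
Each of the 53 tested members (rows, ordered by group and by change at 8 d) on each of the 24 arrays (columns, by time and batch letter), coloured by log2 intensity minus the gene's 0 h mean. ATP6V0A1, ATP6V1F, NEU1, CD68 and GM2A are among the members that are above 0 on all 3 arrays at 2 d. Most members are red at 4 d, and LGMN and MITF are blue at 2 d.

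At 24 h 12 of 53 members had changed in mixed directions (22.6%, near the 18% of all genes that passed). The largest rises were ATP6V1C1 (0.69, SE 0.168, adjusted p = 0.00571), NEU1 (0.45, adjusted p = 0.0322) and ATP6V0E2 (0.39, adjusted p = 0.00946), and the largest falls were LGMN (-0.71, adjusted p = 0.00441), NPC1 (-0.64, adjusted p = 0.0119) and MITF (-0.55, adjusted p = 0.00355). NPC1, the protein that moves cholesterol out of lysosomes, had 8.61, 8.47 and 7.99 at 24 h, against 9.02, 8.84 and 9.13 at 0 h (log2 intensity, batches A, B and D). The groups did not overlap, and the 24 h array of batch D was lowest. These 24 h calls were sensitive to single batches: leaving out batch A, B or D turned the count of 12 into 3, 4 and 6, and it was 7 without the 0 h array of A, 6 without that of D and 7 without the 24 h array of D. ATP6V1C1 lost its call without batch B (adjusted p = 0.115), LGMN without A or B (0.0808 and 0.0861), MITF without B or D (0.0567 and 0.0667), NEU1 without A or D (0.201 and 0.218), ATP6V0E2 without A or B (0.198 and 0.118), and NPC1 without D (0.104) or the 0 h or 24 h array of D (0.0603 and 0.0867). Of the 12 calls, 0 held under all 18 alternatives. With arrays centred on their median, the split at 24 h was 1 higher and 6 lower, against 142 higher and 1215 lower of 10999 genes. The median of all genes then moved to -0.13.

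At 2 d the 13 members that were higher comprised 3 V0, 4 V1, 2 hydrolase, 2 membrane protein and 2 luminal cofactor genes. CD68, a heavily glycosylated lysosomal membrane protein also used as a macrophage marker, had the largest rise (1.01, SE 0.106, adjusted p = 2.25e-07), with 10.93, 10.97 and 10.96 at 2 d, against 9.92, 9.88 and 10.04 at 0 h. It then stayed on this level, with 10.99, 10.94 and 10.88 at 8 d. The summed intensity of the 11 macrophage and immune markers was 393 to 417 per array at 8 d and 398 to 424 at 2 d. At 0 h it was 361 to 394, so that the 2 d range lay above that at 0 h. Of these 11 markers 9 were never above background, so most of each sum was background signal. CSF1R alone was above background on 3 or more arrays, with a mean of 6.73 at 2 d and 5.94 at 0 h. PTPRC, CD14 and ITGAM were never above background, while CSF1R, the receptor for macrophage colony-stimulating factor, was higher at 2 d (0.79, SE 0.14, adjusted p = 0.000216) and at 8 d (0.39, adjusted p = 0.0245). The part of these markers in the rise of CD68 was not tested. NEU1 (0.90, adjusted p = 6.75e-05) and ATP6V0A1 (0.79, adjusted p = 4.91e-05) followed. LGMN, the asparaginyl endopeptidase legumain, fell most (-1.20, SE 0.168, adjusted p = 1.27e-05), with 6.99, 6.89 and 6.92 at 2 d, against 8.31, 8.20 and 7.89 at 0 h. MITF fell by 0.77 (adjusted p = 8.57e-05). GAA, the acid alpha-glucosidase, was not well above background on any array at 2 d and on 2 of 3 at 0 h, which bounds its fall at at least 1.08-fold (adjusted p = 0.0239). Its call was lost without batch A, B or D (adjusted p = 0.0723, 0.126 and 0.103). The count of 16 changed members became 10 without batch A and 10 without batch B, and 5 higher and 3 lower under median centring. Of 10999 genes, 346 were higher and 1334 lower under that centring.

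Of the steps between neighbouring late times that were tested, that between 2 d and 4 d changed the most members: 30 were higher and 3 lower at 4 d (17% and 19.1% of all genes, 36.1% together), with a median of 0.37. Hydrolases made up 15 of the 30 (14 without FUCA1), V1 genes 7, V0, accessory and membrane protein genes 2 each, and cofactors and regulators 1 each. IDUA, the enzyme that removes iduronic acid from heparan and dermatan sulfate, rose most (1.20, SE 0.166, adjusted p = 5.34e-06), with 7.57, 7.60 and 6.96 at 4 d, against 6.31, 6.17 and 6.03 at 2 d. MANBA (1.12, adjusted p = 1.4e-05) and GLA (1.07, adjusted p = 2.65e-08), which cleave mannose and galactose from glycoconjugates, followed. ATP6V0E2 (-0.40, adjusted p = 0.00385), CLN3 (-0.37, adjusted p = 0.0126) and GUSB (-0.27, adjusted p = 0.0452) were lower. ATP6V0E2 lost its call without batch A or B (adjusted p = 0.155 and 0.147), CLN3 without A, without B or without the 4 d array of B (0.0788, 0.232 and 0.121), and GUSB without A, B or D (0.235, 0.132 and 0.121). Without batch B, 21 members were higher and 0 lower. The members' median SD over 3 arrays was 0.180 at 4 d, the highest of the 8 times, against 0.0733 at 2 d. Over all genes tested the median SD was also highest at 4 d (0.161, against 0.110 at 2 d).

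Between 4 d and 6 d, 8 members were higher and 1 lower (4.89% and 3.98% of all genes, 8.87% together). ATP6V1B2 rose most (0.76, SE 0.0788, adjusted p = 1.55e-06), with 11.70, 11.70 and 11.76 at 6 d, against 10.98, 10.94 and 10.98 at 4 d, and it was the only one of the 9 whose call held under all 18 alternatives. NEU1 (0.46, adjusted p = 0.045) and ATP6V1G1 (0.42, adjusted p = 0.0263) followed, and both lost the call without batch A or B and in other alternatives. ATP6V1G2 fell by 0.44 (adjusted p = 0.0245), and lost its call without batch A (adjusted p = 0.2) or B (0.165). ATP6V0E2 (0.33, adjusted p = 0.0465) had an adjusted p of 0.0552 with the batch as a block. Leaving out batch A, B or D turned the count of 9 into 1, 1 and 14, and it was 5 and 4 without the 4 d arrays of A and B, and 3 without the 6 d array of A or of B. Between 6 d and 8 d, 0 of 53 members passed limma's test, against 1.18% of all genes, and 6 had an unadjusted p under 0.05.

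**Figure D3:**
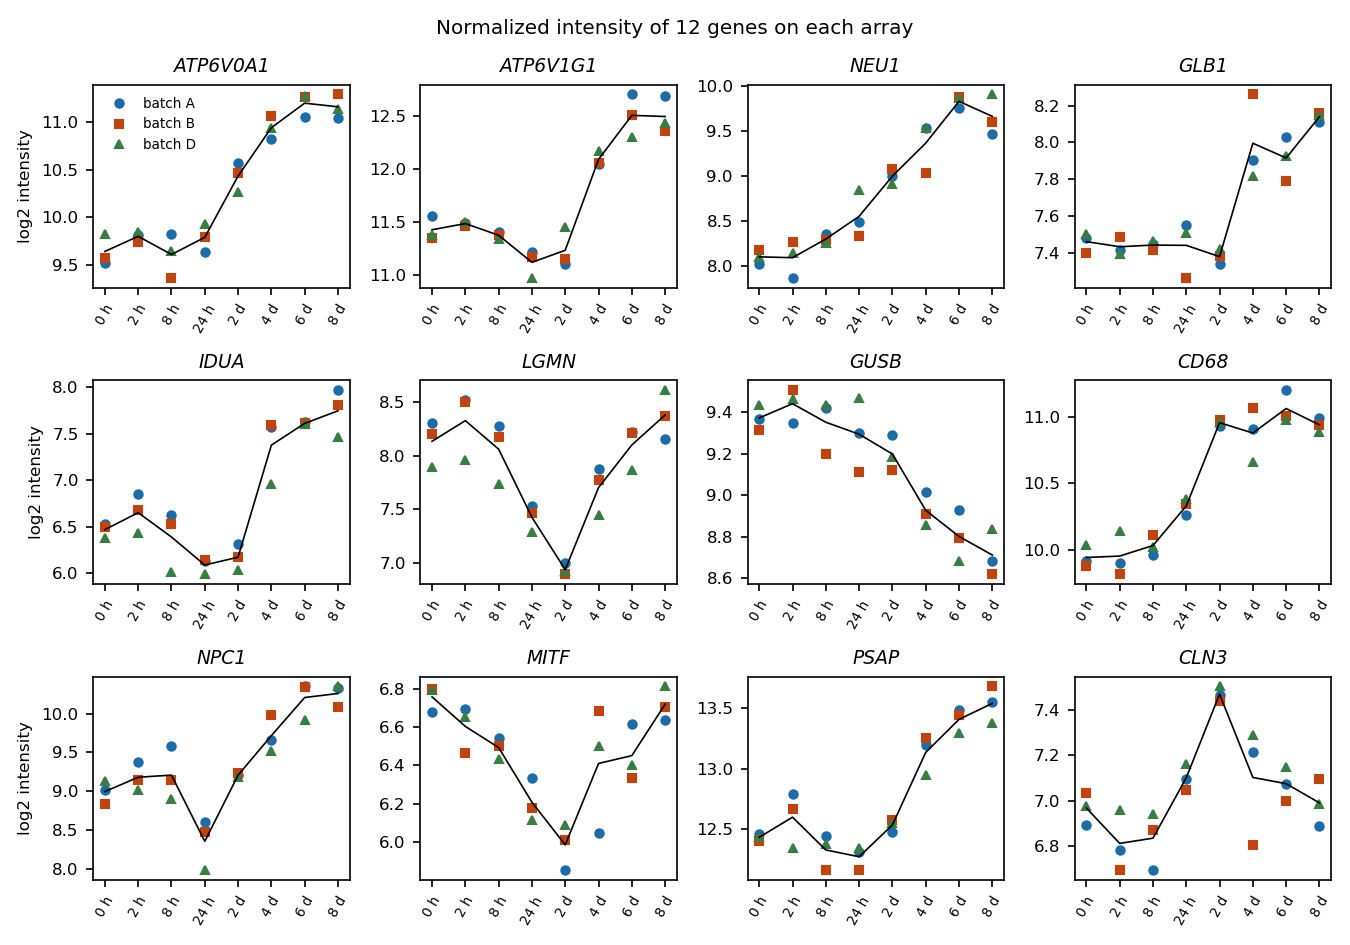
Normalized log2 intensity (vertical axes) of 12 members on each of 24 arrays at 8 times in 4-OHT (horizontal axes, not to scale). Symbols mark batches A, B and D and lines join the means of 3 arrays. All arrays of NEU1 are above its 0 h arrays from 8 h on, those of ATP6V0A1 from 2 d on, and those of GLB1 and IDUA from 4 d on. LGMN and MITF dip at 2 d, CLN3 peaks at 2 d, and GUSB declines.

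At 8 d, pump genes were higher in 16 of 19 cases measured at 0 h, against 23.3% of all genes so measured. Pump genes were lower in 0 cases, against 23.4% of all genes tested. In the V0 sector 6 of 7 genes measured at 0 h were higher (median 0.62). ATP6V0A1, an isoform of the a subunit that lines the proton path, had 11.05, 11.30 and 11.14 at 8 d, against 9.52, 9.57 and 9.83 at 0 h (log2 fold change 1.52, SE 0.124, adjusted p = 5.41e-10). ATP6V0A2, the other a isoform measured, had 7.97, 7.83 and 8.25 at 8 d, against 8.29, 8.24 and 8.23 at 0 h, and did not pass the test (-0.23, 95% interval -0.55 to 0.08). The interval of ATP6V0A1, 1.27 to 1.78, did not overlap it. Of the d isoforms, which join the rotor to the proteolipid ring, ATP6V0D1 rose by 0.84 (SE 0.109, adjusted p = 8.22e-07). ATP6V0D2, not well above background at 0 h, was at least 1.68-fold higher and is left out of these counts. ATP6V0C, which forms the proton-carrying ring, rose by 0.70 (SE 0.101, adjusted p = 4.31e-06), and a dimmer probe of the same transcript gave 1.16. The e isoforms ATP6V0E1 and ATP6V0E2 rose by 0.62 and 0.51 (adjusted p = 0.000503 and 0.000235). ATP6V0E2 had 9.87, 9.77 and 10.07 at 4 d, against 10.43, 10.32 and 10.14 at 2 d, so that every 4 d array lay under the 2 d arrays. ATP6V0E1 had 10.74, 10.77 and 10.72 at 4 d, against 10.44, 10.37 and 10.40 at 2 d, in the opposite order.

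In the V1 sector 8 of 10 tested genes were higher at 8 d (median 0.79), against 23.3% of all genes measured at 0 h. ATP6V1C1, a subunit of the stator, rose most, with 7.27, 7.26 and 7.58 at 8 d, against 6.10, 5.81 and 5.82 at 0 h (1.46, SE 0.168, adjusted p = 1.37e-07). ATP6V1B2, the widely expressed isoform of the B subunit of the ATP-hydrolysing head, had 11.69, 11.68 and 11.78 at 8 d, against 10.35, 10.37 and 10.46 at 0 h (1.32, SE 0.0788, adjusted p = 3.76e-12). ATP6V1B1, the B isoform known from kidney and inner ear, was -0.33 (adjusted p = 0.0814) and above background on 18 of 24 arrays. ATP6V1F and ATP6V1G1, a rotor and a peripheral stalk subunit, rose by 1.19 (adjusted p = 8.08e-09) and 1.07 (adjusted p = 5.93e-08). Of the G isoforms, ATP6V1G2 was -0.17 (95% interval -0.42 to 0.08) and ATP6V1G3 was not above background. The remaining V1 genes that were higher, among them the catalytic subunit ATP6V1A, rose by 0.38 to 0.89. ATP6V1B1 and ATP6V1G2, known as tissue-restricted isoforms, had values under 0 at 8 d beside the rises of ATP6V1B2 and ATP6V1G1, and these differences between isoforms were not tested. At 4 d both had values above 0: ATP6V1G2 had 6.44, 6.36 and 6.53 at 4 d, against 6.03, 5.77 and 6.25 at 0 h, a rise of 0.43 (adjusted p = 0.00608), and ATP6V1B1 gave 0.29 (adjusted p = 0.129). The 4 d call of ATP6V1G2 was lost without batch A, batch B or the 0 h array of B (adjusted p = 0.0691, 0.0896 and 0.0623).

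The accessory proteins ATP6AP1 and ATP6AP2, which take part in assembly of the pump, rose by 0.65 (SE 0.127, adjusted p = 0.000163) and 0.65 (SE 0.0849, adjusted p = 9.11e-07). ATP6AP2 had 12.82, 12.84 and 12.85 at 8 d, against 12.13, 12.13 and 12.29 at 0 h. It had 12.13, 12.15 and 12.16 at 2 d, within the range at 0 h, and neither accessory gene passed the test before 4 d.

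Hydrolases measured at 0 h were higher at 8 d in 15 of 19 cases and lower in 1, with a median of 0.73. Of all genes measured at 0 h, 23.3% were higher, and of all genes tested 23.4% were lower. NEU1, the sialidase that trims sialic acid from glycoproteins, had 9.47, 9.60 and 9.91 at 8 d, against 8.02, 8.18 and 8.10 at 0 h (1.56, SE 0.144, adjusted p = 4.09e-09). It was also the member with the largest value at 6 d (1.73). TPP1, a tripeptidyl peptidase, rose by 1.37 (SE 0.12, adjusted p = 1.76e-09), with 10.44, 10.52 and 10.46 at 8 d, against 9.10, 9.03 and 9.18 at 0 h. MANBA and IDUA rose by 1.30 (adjusted p = 7.26e-07) and 1.28 (adjusted p = 9.11e-07). None of these ranges overlapped that at 0 h. GLB1, the beta-galactosidase, had 8.11, 8.16 and 8.15 at 8 d, against 7.48, 7.40 and 7.50 at 0 h (0.68, SE 0.105, adjusted p = 1e-05). Its values at 2 d (7.34, 7.38 and 7.42) overlapped those at 0 h, and it rose by 0.62 between 2 d and 4 d (adjusted p = 7e-05). FUCA1, which removes fucose and was not well above background at 0 h, was at least 1.45-fold higher and is left out of these counts. The other hydrolases that were higher rose by 0.43 to 1.19.

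GUSB, the beta-glucuronidase often taken as a reference transcript, was the 1 hydrolase that was lower at 8 d. It had 8.68, 8.62 and 8.83 at 8 d, against 9.37, 9.32 and 9.43 at 0 h (-0.66, SE 0.104, adjusted p = 1.3e-05), and also passed the test downward at 4 d (-0.45) and 6 d (-0.57). LGMN had returned at 8 d, with 8.16, 8.37 and 8.62, against 8.31, 8.20 and 7.89 at 0 h (0.25, 95% interval -0.10 to 0.59). Set against 2 d, LGMN rose by 1.45 at 8 d, next to IDUA with 1.57 and MANBA with 1.29. These were the largest rises of the 40 members (38 without ATP6V0D2 and FUCA1) that were higher in that comparison (19.1% of all genes). GUSB and CLN3 were the 2 lower members of it (20.2% of all genes, 39.3% with the higher ones), by -0.49 and -0.48, and both lost the call without batch A (adjusted p = 0.0542 and 0.068). SMPD1 (-0.11, 95% interval -0.44 to 0.23) and ARSB (0.18, 95% interval -0.12 to 0.48) did not pass the test at 8 d. For ARSB 2 dimmer probes of another transcript gave 0.44 and 0.39 (adjusted p = 0.000518 and 0.0297), so its probes disagree.

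**Figure D4:**
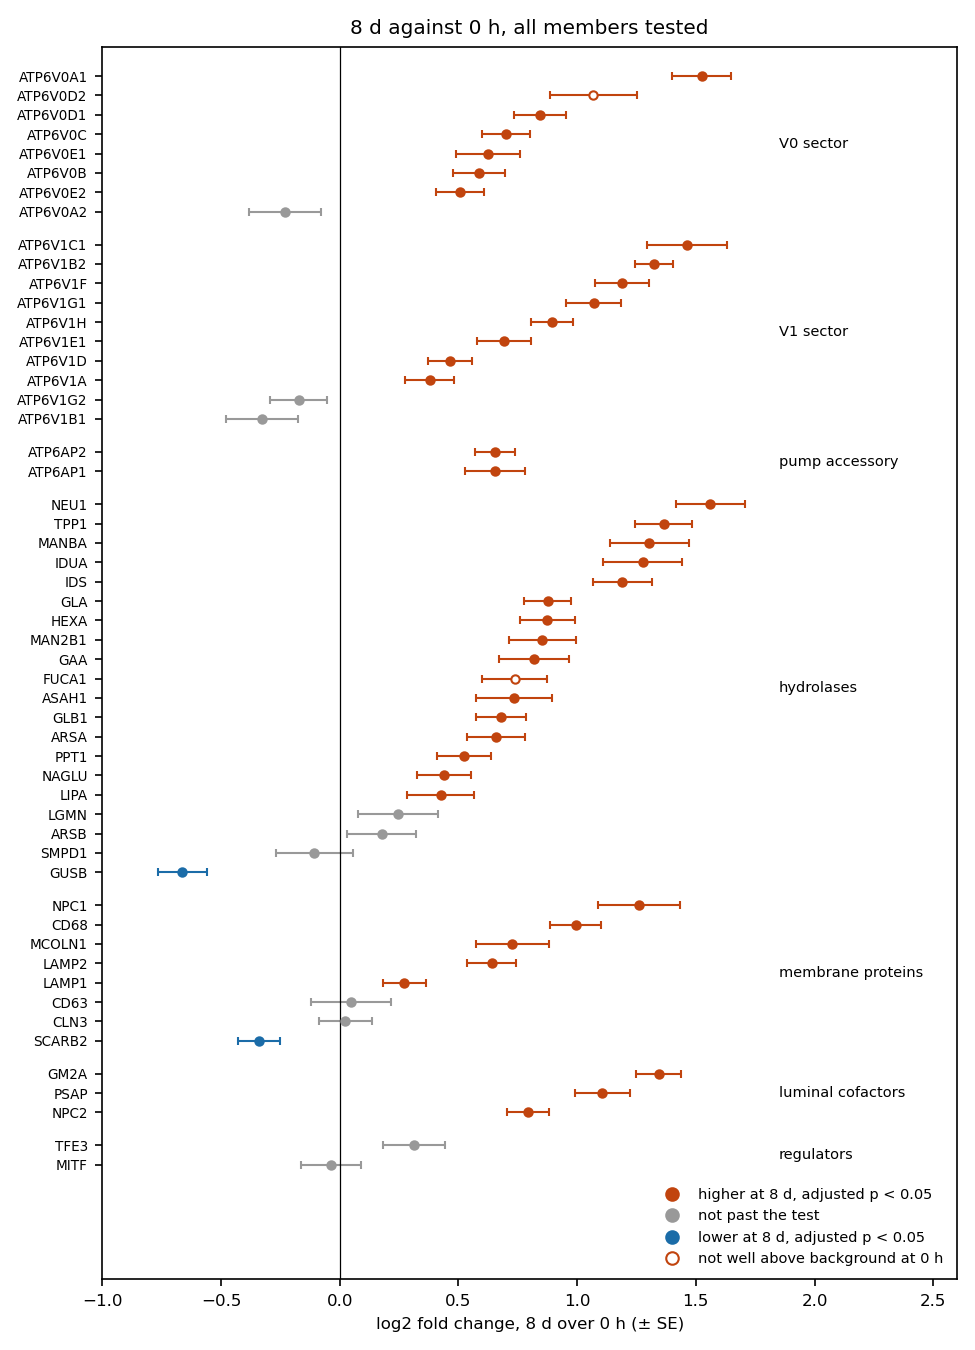
Log2 fold change of 8 d over 0 h (horizontal axis, points with bars of ± SE) for the 53 tested members by group; red points were higher and blue points lower at an adjusted p under 0.05, grey points did not pass, and the open points, ATP6V0D2 and FUCA1, were not well above background at 0 h. The 3 luminal cofactors and 16 of 19 pump genes measured at 0 h are red, and GUSB and SCARB2 are the blue points.

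Luminal cofactors present lipids to hydrolases or carry cholesterol. At 8 d 3 of 3 were higher (23.3% of all genes measured at 0 h). GM2A, the activator protein for GM2 ganglioside breakdown, had 11.36, 11.32 and 11.42 at 8 d, against 9.93, 10.00 and 10.14 at 0 h (1.34, SE 0.094, adjusted p = 4.8e-11). PSAP, the precursor of the saposins, rose by 1.11 (SE 0.117, adjusted p = 3.93e-08), with 13.55, 13.69 and 13.38 at 8 d, against 12.46, 12.40 and 12.44 at 0 h. NPC2, the soluble cholesterol carrier, rose by 0.79 (SE 0.0888, adjusted p = 9.32e-08). GM2A and NPC2 were already higher at 2 d (0.63 and 0.37), and PSAP from 4 d (0.70). The 2 d call of NPC2 was lost without batch A (adjusted p = 0.12) or B (0.0627).

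Membrane proteins were the most divided group at 8 d, with 5 of 8 higher, 1 lower and a median of 0.46. The shares over all genes were 23.3% higher (genes measured at 0 h) and 23.4% lower (all genes tested). NPC1 had 10.33, 10.09 and 10.36 at 8 d, against 9.02, 8.84 and 9.13 at 0 h (1.26, SE 0.173, adjusted p = 1.9e-06), after its lower level at 24 h. CD68 rose by 0.99 (SE 0.106, adjusted p = 4.23e-08), MCOLN1, the TRPML1 calcium channel, by 0.73 (SE 0.154, adjusted p = 0.000423) and LAMP2 by 0.64 (SE 0.105, adjusted p = 2.25e-05). LAMP1, an abundant glycoprotein of the lysosomal membrane, had 13.54, 13.52 and 13.70 at 8 d, against 13.31, 13.29 and 13.35 at 0 h (0.27, SE 0.0917, adjusted p = 0.0176). This small rise was lost without batch A, B or D (adjusted p = 0.124, 0.074 and 0.0961), without the 0 h array of B (0.053) and without the 8 d array of D (0.0864), and its sign turned under median centring (-0.02). SCARB2, the receptor that carries glucocerebrosidase to lysosomes, was lower (-0.34, SE 0.0882, adjusted p = 0.00274), with 11.65, 11.62 and 11.76 at 8 d, against 11.96, 11.98 and 12.11 at 0 h. Without batch A its adjusted p was 0.0548. CD63, a tetraspanin, gave 0.05 (95% interval -0.30 to 0.40). CLN3 gave 0.02 (95% interval -0.21 to 0.25) after a level of 7.46, 7.44 and 7.51 at 2 d, against 6.89, 7.04 and 6.98 at 0 h (0.50, adjusted p = 0.00196), a call lost without batch A (adjusted p = 0.0996).

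LAMP2 was read by several probes that did not move alike. The brightest probe and a dimmer probe, both designed on transcript variant A, gave 0.64 and 0.56 at 8 d against 0 h (adjusted p = 2.59e-05 and 0.00443, adjusted over all probes kept). The probe on transcript variant B gave 0.23 (adjusted p = 0.0631) and a probe on a further cDNA 0.27 (adjusted p = 0.0829). Between 2 d and 4 d the variant A probes rose by 0.66 and 0.79, and the variant B probe gave 0.16 (adjusted p = 0.241). The difference between probes was not tested, and transcript amounts cannot be set against each other across probes.

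**Figure D5:**
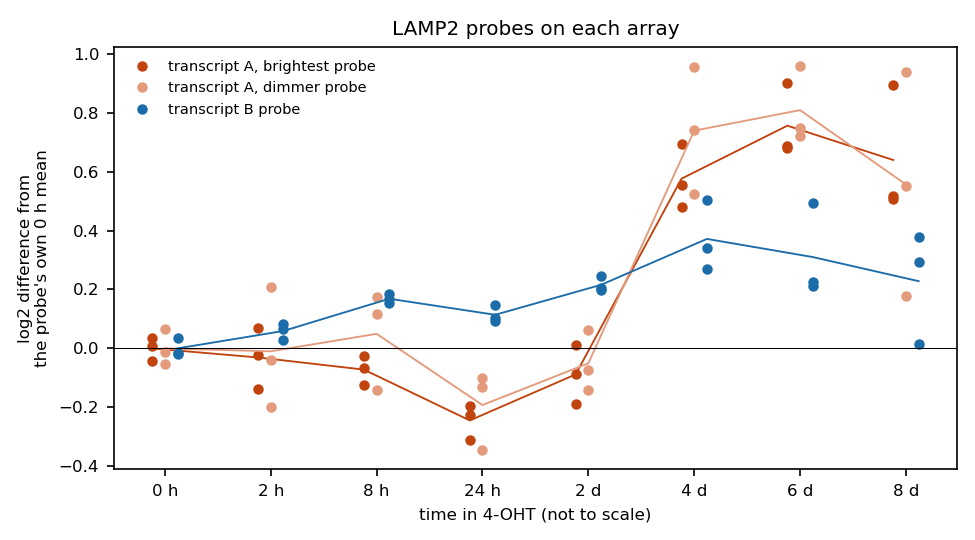
Log2 difference from each probe's own 0 h mean (vertical axis) for 3 LAMP2 probes on each array at 8 times in 4-OHT (horizontal axis, not to scale), with lines through the means. From 4 d on the means of the variant A probes lie above the mean of the variant B probe.

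Among the regulators, MITF alone passed a test. It had 5.85, 6.01 and 6.09 at 2 d, against 6.68, 6.80 and 6.80 at 0 h. At 8 d it had 6.64, 6.71 and 6.82, which overlap the 0 h arrays (8 d over 0 h -0.04, 95% interval -0.30 to 0.22). Set against 2 d, it was 0.73 higher at 8 d. TFE3 had 8.08, 8.27 and 8.17 at 8 d, against 7.96, 7.65 and 7.97 at 0 h (0.31, SE 0.13, adjusted p = 0.0519), just outside the test, and its adjusted p lay under the threshold in 6 of 18 alternatives (0.0443 without batch A). TFEB was not above background on any array, which bounds its signal on this platform and says nothing of its protein.

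Further lysosomal genes outside the set were counted in the same fit. Of 21 other hydrolases tested, 12 were higher and 1 lower at 8 d than at 0 h (ARSG 1.59, DPP7 1.15; ACP2 -0.32). Of 24 other membrane proteins and transporters, 13 were higher and 2 lower (CTNS 1.38, OSTM1 1.29; LITAF -0.88, CLN6 -0.34). Mannose 6-phosphate sorting genes, which route hydrolases to lysosomes, were higher in 5 of 12 cases and lower in 0 (IGF2R 1.27, AP1S1 0.87). The Ragulator, RAG and folliculin list, the nutrient-sensing complexes on the lysosome, had 7 of 11 higher and 0 lower (RRAGD 1.34, FLCN 1.04). V-ATPase assembly and regulator genes were higher in 3 of 9 cases and lower in 1 (NCOA7 0.67, VMA12 0.47; OXR1 -0.53). These shares stand beside 24% of all genes higher and 23.4% lower.

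By size, 13 of the 51 members measured at 0 h were at least 2-fold higher at 8 d than at 0 h (4.25% of genes measured at 0 h), 14 at 6 d (4.13%) and 8 at 4 d (3.87%). Of the 43 calls at 8 d (41 without ATP6V0D2 and FUCA1), 31 held (29 without these) under all 18 alternatives. The calls of ATP6V0B, ATP6V0E1, ATP6V0E2, ATP6V1D, LAMP2 and MCOLN1 were lost only under median centring. Those of ATP6V1A and PPT1 were also lost without batch A (adjusted p = 0.117 and 0.0543), that of NAGLU without batch B (0.0743), and that of LIPA without batch A, the 0 h array of B or the 8 d array of A (0.183, 0.0854 and 0.073). Under median centring 30 members were higher and 3 lower, against 1153 higher and 3072 lower of 10999 genes. The median of all genes then moved to -0.15.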

How the data were processed

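Total RNA from 24 cultures (8 time points, 3 batches each) was labelled with biotin after amplification and hybridised to Illumina human-6 v2 BeadChips, per the labels' protocols. The deposited array values are probe intensities on a log2 scale, from 3.21 to 14.8 over the arrays, and the series' value table holds log2 values that differed from a quantile normalization of those array values by a median of at most 0.00328. The labels do not say how scanner output was summarised.

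The log2 values were returned to the linear scale, background-corrected with normexp (offset 16), quantile-normalized and put back on the log2 scale (limma 3.58.1, R 4.3.3). Per array, 26.7 to 30.1% of 48701 probes were above background (probability 0.01 under a background distribution fitted to the dim probes), and signal over background and the 3 arrays per time limit the precision. Of the probes, 23687 had 1 gene symbol, 35 several and 24979 none. Each gene was read from its probe with the highest mean in the value table, and 10999 genes above background on at least 3 arrays entered a linear model with 8 group means (16 residual degrees of freedom), fitted with lmFit, contrasts.fit and eBayes. P-values were adjusted by Benjamini-Hochberg over all genes within a comparison, with a threshold of 0.05. The fit was tested on simulated data for 8 d against 0 h with 10999 genes, where 55% of changes of 0.5 log2 and 98% of changes of 1 log2 were recovered. In that simulation 100 genes changed by each size, and background was not modelled. On the arrays 5217 of 10999 genes passed at 8 d against 0 h, so the simulated shares need not hold for them.

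The fold of a member is given as "at least" where the dimmer time was not well above background on any array. The batch letters mark biological replicates in the series' description and so pair arrays across times. Residuals of arrays with the same letter correlated by 0.0366, 0.00419 and 0.0599 on average (A, B and D), and the batch as a block was an alternative, as were another offset, no background correction, median centring, the value table itself, other filters and probe rules, and leaving out each batch and array. Genes were named by a fixed rule: the largest rises and falls past the test per group or comparison, pump isoforms side by side, a set of well-known lysosomal genes, and members not above background. The members and lists were chosen with earlier results of these data known. Promoter sequences are from RefSeq (GRCh38.p14), and no genome coordinates of probes were used.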

Additional observations from a re-analysis of the deposited data

How the results depend on the processing

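Results for single members were recomputed under 36 settings; of the 238 named results, the comparisons with their alternatives kept direction and side of the threshold in 3873 cases, lost the call in 400, gained it in 6 and changed sign in 5. The sign changes were LAMP1 at 8 d against 0 h (-0.018 with median centring), CD63 (-0.19 with median centring, and -0.12 to 0.19 over the fits that leave out a batch or array, negative without batch D or the 8 d array of D) and MITF (-0.087 to 0.0029 over such fits, positive without the 8 d array of A). With median centring the changed members numbered 7 at 24 h, 8 at 2 d and 2 for 6 d against 4 d, and the median of all genes moved to -0.19 at 2 h, -0.13 at 24 h, -0.10 at 2 d, -0.12 at 6 d and -0.15 at 8 d. For 6 d against 4 d, 95 of 10999 genes were higher and 297 lower under that centring. With only the arrays of the 2 time points, 1 member passed for 6 d against 4 d, and with an offset of 50, 1 passed for 8 d against 6 d. Leaving out a batch or array gave counts of changed members of 3 to 10 at 24 h, 10 to 15 at 2 d, 28 to 39 at 4 d, 36 to 41 at 6 d, 39 to 44 at 8 d, 21 to 31 for 4 d against 2 d, 1 to 14 for 6 d against 4 d, 36 to 41 for 8 d against 2 d, and 44 to 48 in the F test; fewer arrays enter these fits, and the cause of the other changes was not tested. With the batch as a replicate block the counts were 14 at 24 h, 17 at 2 d, 40 at 4 d, 41 at 6 d, 43 at 8 d, 35 for 4 d against 2 d, 9 for 6 d against 4 d and 43 for 8 d against 2 d; among the called members the block took away the call of ATP6V0E2 for 6 d against 4 d (adjusted p = 0.0552) and no other. Dim probes and 3 arrays per time limit what could be seen. In the simulated data changes of 0.5 log2 were recovered in 55% of cases, with few genes changed and no background modelled, so that share need not hold for these arrays.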
